A study of Brassica napus with 74 samples.

Results

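Napins are the 2S albumin storage proteins of *Brassica* seeds, and 7 napin genes of *B. napus* were followed here through 26 seed subregions. The genes were the copies that the authors list by name and identifier as *SEED STORAGE ALBUMIN4* (*SESA4*) pairs and as *SESA1*, and each identifier gives the subgenome (An or Cn) and the chromosome. The 6 *SESA4* copies form the pairs BnaA08g14120D and BnaC08g12450D (A08/C08), BnaA01g16220D and BnaC01g19320D (A01/C01), and BnaA03g06940D and BnaC03g08840D (A03/C03). The *SESA1* copy is BnaC01g19300D, and its An partner in the same list, BnaA01g17200D, is not one of the 7 and was used to form a ratio. All 7 genes were among the 101,040 genes of the table, and all 7 passed the filter on low values.

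Napins are made on the endoplasmic reticulum as precursors, cut into a small and a large chain, and stored in protein storage vacuoles, where they serve the seedling as a reserve of nitrogen and sulfur. Together with the cruciferins, which are 12S globulins, they form the bulk of the storage protein in a canola seed. In Arabidopsis the *SESA* genes are known as targets of the maturation program that LEAFY COTYLEDON1 (LEC1) and its partners set up, and their transcripts are known above all from the maturing embryo.

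RNA was sequenced from laser-microdissected subregions of cv. Topas seeds in 74 libraries, 44 from 16 maternal and 30 from 10 filial subregions, with 2 to 5 libraries each, in which a library was RNA pooled from many sections and plants. The labels give no transgene and no treatment, so the groups differ by stage and tissue only. The stages were the unfertilized ovule (ov, 0 d after pollination), the globular (g, 7 d), the heart (h, 10 d), and the mature green stage (mg, 28 d). The filial subregions were the cotyledon (COT) and embryonic root (ROOT) of mature green embryos, the embryo proper (EP), and the micropylar, peripheral, and chalazal endosperm (MCE, PEN, and CZE). The maternal subregions were the outer, inner, and chalazal seed coat (OSC, ISC, and CZSC) and the chalazal proliferating tissue (CPT). Values were transcript abundances (TPM, a share of the library's transcripts), which are scaled by gene length and by the total of a library. Only reads that aligned to a single place were counted, so reads shared by near-identical napin copies were counted for none of them, and the level of each copy is uncertain to that extent.

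The deposited TPM values carried a constant of 0.01 reads, from which the reads on a gene could be recovered. Recovered reads over the 84,066 genes that allowed it, a lower limit of depth, ranged from 61,465 to 8,395,394 in a library (median 2,211,317). In ovCPT replicate 2 the recovered reads numbered 95,448, and a single read on BnaA08g14120D was worth 21.3 TPM there, against 0.71 TPM in ovCPT replicate 1. The tissue in the label differed from the title in 3 libraries (mgCPT replicate 1 and mgCOT replicates 1 and 2), and the title was used. The labels list 3 mgCZSC samples, and the table's name for 1 of the 3 mgCZSC libraries matched no single title, so that library was kept without a replicate number. Its summed TPM of the 7 copies was 15059, against 1065 in mgCZSC replicate 3. The napin values of mgCPT replicate 2 and mgOSC replicate 1 stood apart from the other mature green libraries, and values without this pair are given beside the results that they moved. The summed TPM of the *LEC1* copies was 0.0685 to 0.196 in the 5 mature green embryo libraries and 63.1 to 88.0 in the 3 hEP libraries, so this early embryo marker does not mark embryo RNA at the mature green stage. Markers of maternal tissues were low in the mature green embryo libraries, where the *CEP1* copies, which mark inner maternal tissues, summed to 0.0003 to 0.242 TPM, against 1.82 to 18.9 TPM in the 10 mature green maternal libraries. The *CUT1* copies of the outer seed coat summed to 0.0002 to 0.118 TPM in the embryo libraries and 0.74 to 4.03 TPM in the maternal libraries, and the *WIH* copies of chalazal tissue to 1.67 to 6.23 TPM and 5.78 to 135 TPM in the same groups. The *CEP1* copies summed to 3890 to 6764 TPM in the hISC but to 1.82 and 8.12 TPM in the mgISC. The *CUT1* copies summed to 1.80 and 1.81 TPM in the mgOSC, against 4.03 TPM in mgCPT replicate 1. Like *LEC1*, *CEP1* and *CUT1* therefore did not mark their tissues at the mature green stage.

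All napin copies other than the A08 copy of *SESA4* had their highest levels at the mature green stage. For each of these 6 copies the 6 subregions with the highest mean TPM were the 6 mature green subregions. For 5 of them every mature green library was also above every other library of the series, by the smallest ratio for BnaC03g08840D, whose lowest mature green library had 328.7 TPM and whose highest other library, hEP replicate 2, had 319.9 TPM. The exception was BnaC08g12450D, with 5.72 TPM in its lowest mature green library and 9.94 TPM in hEP replicate 2. The share of all genes with either of these patterns was not counted, so neither count can be read as particular to the napins. The order of the mature green subregions among themselves was largely unresolved. Neighbors in that order had overlapping libraries throughout for BnaA01g16220D, BnaA03g06940D, BnaC03g08840D, and BnaC01g19300D. Neighbors without overlap were the mgCOT and the mgCPT for BnaC08g12450D, whose 3 highest means were in the mgOSC, the mgROOT, and the mgCOT. This did not part the subregions, since mgCZSC replicate 1, with 187 TPM, was above mgCOT replicate 1, with 176 TPM. For BnaC01g19320D the mgROOT did not overlap with the mgISC, whose mean was the lowest. Its 1026 and 1321 TPM still overlapped with the mgCPT (1056 TPM in replicate 1) and the mgCZSC (190 TPM in replicate 3).

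**Figure D1:**
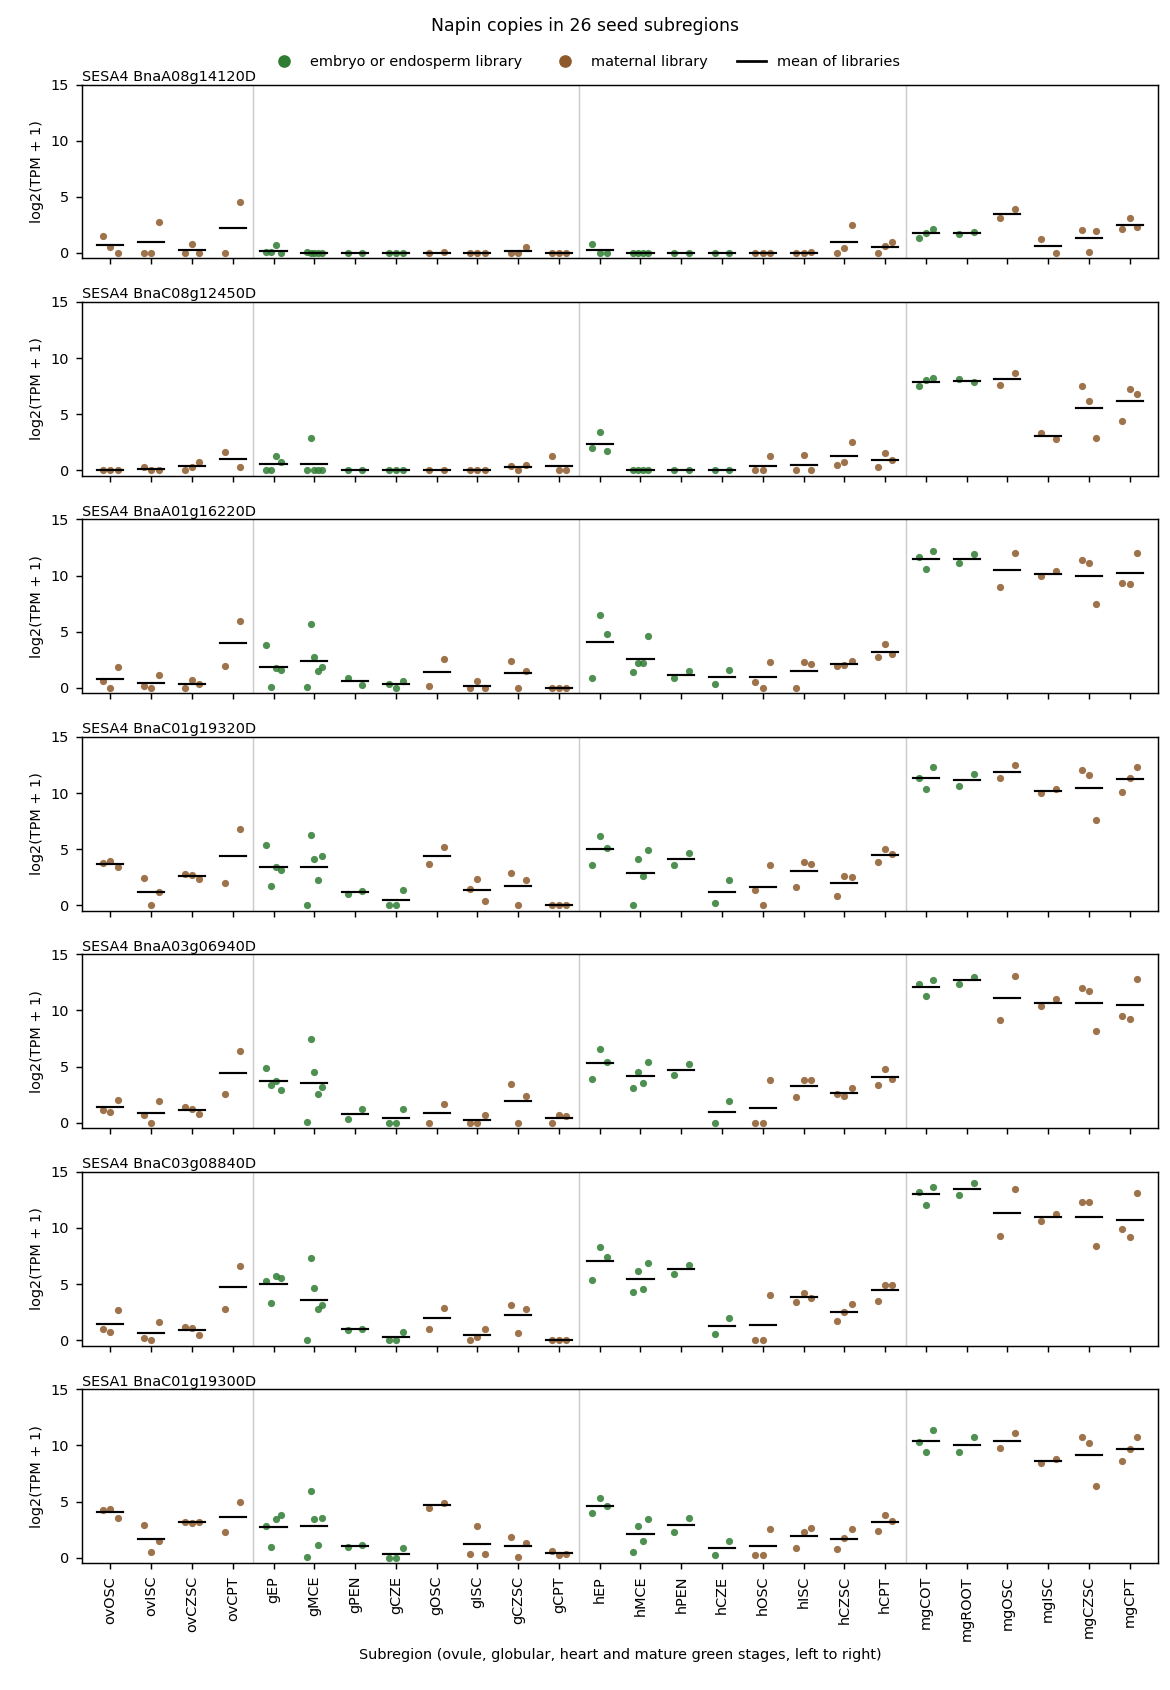
Level of each of the 7 napin copies, as log2(TPM + 1), in 26 subregions from the ovule to the mature green stage. Points are libraries, green for embryo or endosperm and brown for maternal, and bars are means. In 6 panels the mature green subregions stand highest, and the top panel (BnaA08g14120D) stays at or below 21.5 TPM.

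The copies differed widely in level among themselves. BnaC03g08840D had the highest mean in both embryo subregions, with 8885 ± 4256 TPM in the mgCOT (SD, n = 3) and 12299 ± 6440 TPM in the mgROOT (SD, n = 2), where it ranked 26th and 21st among all genes. BnaA08g14120D averaged 2.41 ± 0.86 TPM in the mgCOT and 2.36 ± 0.33 TPM in the mgROOT, ranking 2037th and 2039th. The summed TPM of the 7 copies made up 1.05% to 3.41% of all transcripts in mature green embryo libraries and 0.11% to 3.23% in mature green maternal libraries, and the ranges overlapped. These are shares of unlike totals. The 200 genes of highest mean, leaving out the listed storage genes, took 88.7% to 95.8% of the TPM in these embryo libraries. In the maternal libraries they took 40.8% to 65.3%. TPM depends on the length used for a gene, and the steps of the values showed that the model of BnaC01g19300D was counted as 4.30 times as long as that of BnaA08g14120D, while the 2 copies of each *SESA4* pair were of nearly the same length.

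The comparison of mature green embryo with heart embryo asked which napins accumulated as the embryo filled. All 7 copies were higher in the mature green embryo (mgCOT and mgROOT, 5 libraries) than in the hEP (3 libraries), with a median log2 change of 6.20, against a median of -0.10 over all genes. Of the 99,343 genes tested, 0.651% were called higher in this comparison. Changes are fitted differences of log2(TPM + 1), tested with limma and adjusted by the Benjamini-Hochberg method over all genes tested. BnaC03g08840D had 9685, 4285, and 12684 TPM in the mgCOT libraries and 7746 and 16853 TPM in the mgROOT libraries, against 41.0, 319.9, and 165.9 TPM in the hEP libraries. Its lowest mature green embryo library was thus far above its highest hEP library, and the fitted change was 6.20 ± 1.01 (SE, limma adjusted p = 7.8e-07). BnaA01g16220D had the largest change, with 3288, 1542, and 4652 TPM in the mgCOT and 2194 and 3802 TPM in the mgROOT, against 0.87, 88.3, and 26.2 TPM in the hEP. The groups did not overlap, and the log2 change was 7.44 ± 0.96 (SE, limma adjusted p = 2.6e-09), or 174-fold on the scale of TPM + 1. The smallest change was that of BnaA08g14120D, which had 1.56, 2.41, and 3.28 TPM in the mgCOT and 2.13 and 2.60 TPM in the mgROOT, against 0.75, 0.012, and 0.0046 TPM in the hEP. No read of this copy was recovered in 2 of the 3 hEP libraries, and its change of 1.47 ± 0.52 (SE, limma adjusted p = 0.023) was not called without hEP replicate 2, hEP replicate 3, or mgROOT replicate 2. For each of the 7 copies every mature green embryo library was above every hEP library, which held for 1.68% of genes. In bulk samples of this kind, a difference in the number of cells of a type and a difference in RNA per cell cannot be told apart.

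The same comparison in the maternal subregions asked whether napin transcripts also accumulated outside the embryo. All 7 copies were higher in the mature green maternal libraries (10) than in the heart maternal libraries (12), with a median log2 change of 7.93, where 19.1% of genes were called higher. BnaA01g16220D had a lowest, median, and highest value of 175, 1173, and 4209 TPM in the mature green maternal libraries, against 0.0039, 3.61, and 14.4 TPM in the heart maternal libraries, with a log2 change of 8.28 ± 0.56 (SE, limma adjusted p = 1.9e-18), or 311-fold on the scale of TPM + 1. BnaC01g19300D, the *SESA1* copy, had 81.9, 831, and 2141 TPM in the mature green maternal libraries, against 0.16, 4.05, and 12.6 TPM in the heart maternal libraries, with a change of 7.51 ± 0.50 (SE, limma adjusted p = 7.1e-19). For 6 of the 7 copies every mature green maternal library was above every heart maternal library, which held for 0.306% of genes. The exception was BnaA08g14120D, with 0.014, 3.18, and 13.9 TPM in the mature green maternal libraries against 0.0026, 0.0078, and 4.64 TPM in the heart maternal libraries, and a change of 1.61 ± 0.31 (SE, limma adjusted p = 1.7e-05). The *LEC1* copies summed to 0.80 to 5.15 TPM in these mature green maternal libraries and 0.49 to 64.5 TPM in the heart maternal libraries. Of the 8 copies listed as cruciferins 6 rose and 1 fell in the mature green maternal libraries relative to the heart maternal libraries. The *CRB* copies did not rise, and whether they encode cruciferins was not checked. BnaA06g05390D averaged 1.60 TPM against 3.44 TPM at the heart stage, and BnaC05g06870D averaged 1.15 TPM against 1.91 TPM. The *CRU1*, *CRU2*, and *CRU3* copies and all 11 oleosin copies, which are also genes of the maturing embryo, rose with the napins. Whether embryo RNA in the maternal sections had a part in this was not tested.

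**Figure D2:**
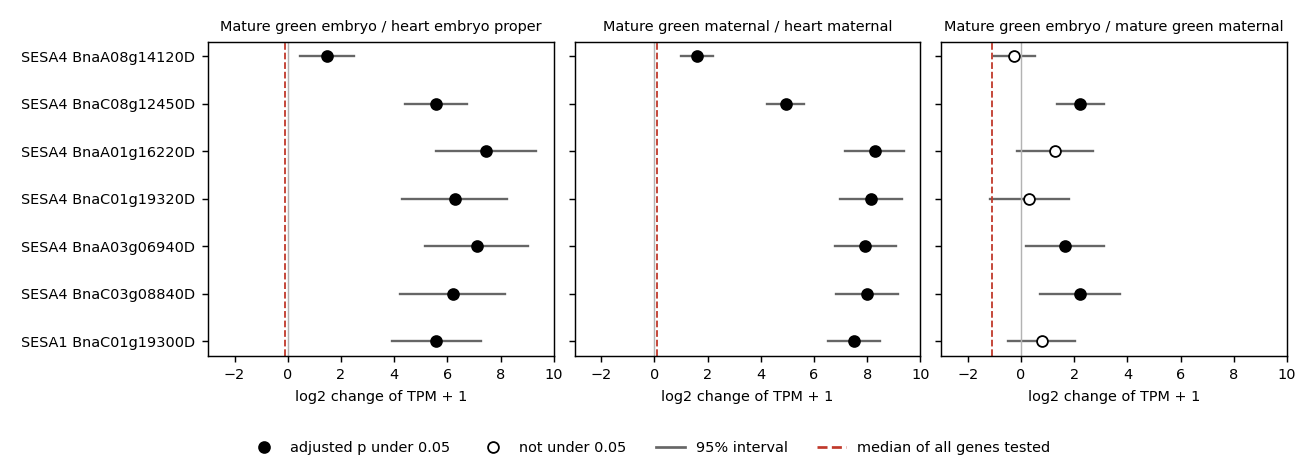
Fitted log2 change of TPM + 1 of the 7 copies in 3 comparisons, with the first-named libraries over the second. Points are fitted changes, bars are 95% intervals, filled points have an adjusted p under 0.05, and the dashed line is the median of all genes tested. All 7 copies are to the right of 0 in the first 2 panels, and 3 are called in the third, where the median of all genes is at -1.08.

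Mature green embryo and mature green maternal libraries were then compared directly. Of the 7 napin copies 3 were called higher in the embryo, BnaC08g12450D, BnaA03g06940D, and BnaC03g08840D, and none was called lower. Of all genes tested 0.0715% were called higher and 94.0% lower. Of the 11 listed oleosins, which coat oil bodies, 10 were called lower, which is close to the share of all genes. The embryo libraries had 2597 to 6160 genes above 1 TPM and the maternal libraries had 34,389 to 91,094, and the median log2 change of all genes was -1.08, so changes are best read relative to it. BnaC03g08840D had 9685, 4285, and 12684 TPM in the mgCOT and 7746 and 16853 TPM in the mgROOT, against a lowest, median, and highest value of 329, 2039, and 11243 TPM in the maternal libraries, and its change was 2.21 ± 0.77 (SE, limma adjusted p = 0.0068). BnaC08g12450D had 176, 257, and 299 TPM in the mgCOT and 279 and 226 TPM in the mgROOT, against 5.72, 92.0, and 398 TPM in the maternal libraries, and its change was 2.23 ± 0.45 (SE, limma adjusted p = 2.5e-05). The third copy, BnaA03g06940D, changed by 1.65 ± 0.75 (SE, limma adjusted p = 0.034), and its call was lost with 0.1 TPM added (adjusted p = 0.14), in a limma fit of only the libraries compared (adjusted p = 0.064), and without the 3 libraries whose labels differ (adjusted p = 0.072). It was also lost without any 1 of mgCPT replicates 1 and 2, mgCZSC replicate 3, mgISC replicate 1, mgOSC replicate 1, mgCOT replicates 1 and 3, and mgROOT replicates 1 and 2. With quantile normalization neither A03/C03 copy was called, with changes of 1.65 for BnaC03g08840D (limma adjusted p = 0.092) and 1.4995 for BnaA03g06940D (limma adjusted p = 0.105), whereas BnaC08g12450D, BnaA08g14120D, and BnaC01g19300D were. Embryo and maternal values overlapped for all 7 copies, and every embryo library was above every maternal library for 0.0332% of genes. With the TPM rescaled without the 200 genes of highest mean all 7 copies were called higher in the embryo, and without mgCPT replicate 2 and mgOSC replicate 1 only BnaC08g12450D was. BnaA08g14120D, with a change of -0.25 ± 0.39 (SE, limma adjusted p = 0.53), turned to 3.03 under that rescaling.

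A ratio taken within a library does not depend on its scale. The summed TPM of the 7 napin copies was 7.35, 5.98, and 6.47 times that of the 11 oleosin copies in the mgCOT libraries and 11.1 and 10.8 times in the mgROOT libraries. In the 10 mature green maternal libraries the lowest, median, and highest ratios were 0.38, 0.84, and 2.37. Embryo and maternal libraries did not overlap in this ratio. The ratio of the napin copies to the 6 *CRU1*, *CRU2*, and *CRU3* copies was 4.05, 3.09, and 2.64 in the mgCOT and 3.55 and 4.48 in the mgROOT, against 0.55, 1.44, and 3.90 in the maternal libraries, and here the ranges overlapped. The lowest of these, 0.55, was in mgOSC replicate 1, and the next was 0.91 in mgCPT replicate 1. Both ratios were chosen after the values were seen and were not tested.

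Within the mature green embryo, the cotyledon and the root were not told apart by their napins. None of the 7 copies was called between the mgCOT (3 libraries) and the mgROOT (2 libraries) with limma, and none had an unadjusted p under 0.05, where 0.0101% of genes were called in either direction. The changes lay between -0.56 (BnaA03g06940D, 95% interval -2.97 to 1.84) and 0.30 (BnaC01g19300D, 95% interval -1.76 to 2.35). The intervals therefore allow a difference of several fold in either direction.

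Among the mature green maternal subregions the C08 copy of *SESA4* was the only one called. BnaC08g12450D had 9.09 and 5.72 TPM in the 2 mgISC libraries, against a range of 6.21 to 398 TPM in the 8 libraries of the mgCPT, mgCZSC, and mgOSC. Its change in the mgISC was -3.56 ± 0.64 (SE, limma adjusted p = 0.00018), where 2.39% of genes were called lower. Those 9.09 and 5.72 TPM rested on 20 and 4 recovered reads. The same copy had 192 and 398 TPM in the 2 mgOSC libraries, against 5.72 to 187 TPM in the other 8 maternal libraries, which did not overlap. Its change in the mgOSC was 3.21 ± 0.64 (SE, limma adjusted p = 0.0014), where 0.885% of genes were called higher and 0.683% did not overlap in this direction. The call in the mgOSC was lost without either of its 2 libraries. BnaA08g14120D joined it without mgCZSC replicate 1, mgCZSC replicate 3, or mgISC replicate 1, and joined the call in the mgISC without mgCPT replicate 1. Both calls of BnaC08g12450D were lost when 0.1 TPM was added in place of 1 TPM or when the fit held only the libraries compared. BnaA08g14120D had a change of -1.81 in the mgISC (limma adjusted p = 0.054) and 1.999 in the mgOSC (limma adjusted p = 0.069), and no other copy was called in either. None was called in the mgCPT, where 0.662% of genes were called in either direction, or in the mgCZSC, where 9.59% were, each against the other maternal subregions with limma, and none had an unadjusted p under 0.05 there. BnaC01g19320D illustrates the spread between libraries of a subregion, with 1056, 2520, and 5115 TPM in the mgCPT and 4368, 3104, and 190 TPM in the mgCZSC, the last in replicate 3, against 1026 and 1321 TPM in the mgISC and 2522 and 5650 TPM in the mgOSC.

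The napin transcripts also differed in make-up between embryo and maternal libraries. BnaC03g08840D gave 39.5% to 49.5% of the summed TPM of the 7 copies in the embryo libraries, against 11.1% to 34.8% in the maternal libraries, which did not overlap. BnaC01g19320D gave 8.995% to 15.9% in the embryo libraries, against 17.3% to 48.1% in the maternal libraries, which did not overlap either. BnaA01g16220D gave 11.2% to 14.7% and 9.51% to 18.9%, and BnaA03g06940D gave 20.7% to 29.5% and 10.95% to 27.0%, in embryo and in maternal libraries. Without mgCPT replicate 2 and mgOSC replicate 1 the other 8 maternal libraries had 17.3% to 27.6% for BnaC01g19320D, 25.1% to 34.8% for BnaC03g08840D, 12.8% to 18.9% for BnaA01g16220D, and 19.3% to 27.0% for BnaA03g06940D. The first and second of these copies were still without overlap between embryo and maternal libraries. Shares of a sum are not independent of each other and were not tested.

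**Figure D3:**
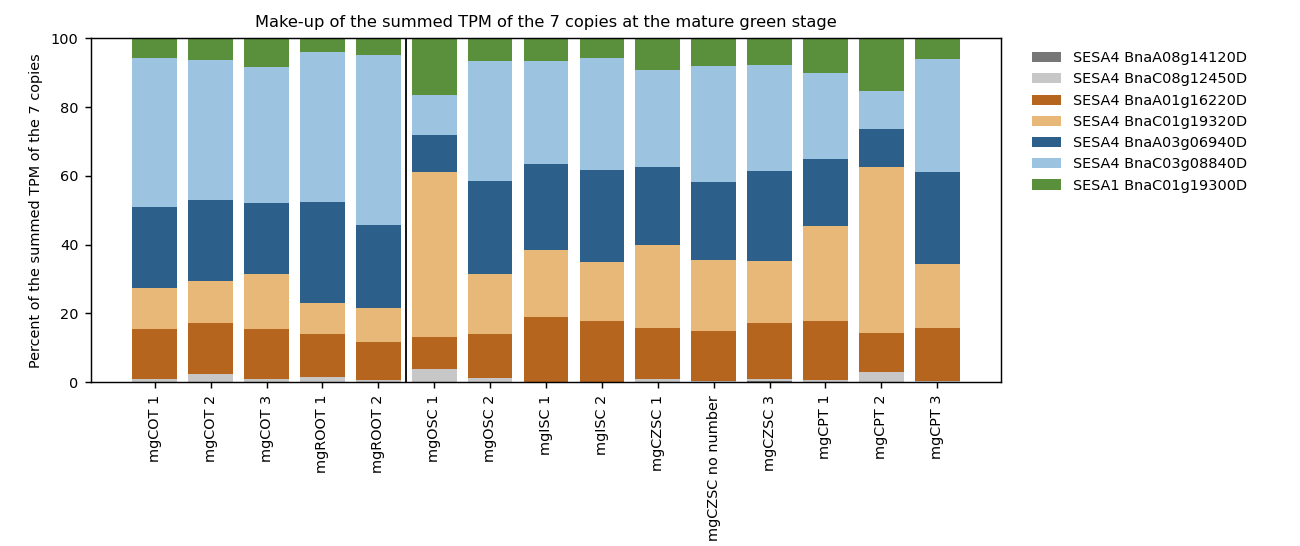
Percent of the summed TPM of the 7 copies that each copy gave in the 15 mature green libraries, with the 5 embryo libraries on the left and the 10 maternal libraries on the right. The share of BnaC03g08840D (light blue) is 39.5% to 49.5% in embryo libraries, and that of BnaC01g19320D (light orange) is highest in mgCPT replicate 2, at 48.1%, followed by mgOSC replicate 1.

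Homoeologs were compared by the log2 ratio of An over Cn within a library, after adding 1 TPM to both copies, so that a negative value is a higher Cn copy. Over the 15 mature green libraries 2 of the 3 *SESA4* pairs leaned toward Cn. The ratio of the A08/C08 pair averaged -4.57 ± 1.80 (SD, n = 15), a 23.8-fold higher C08 copy, and was below 0 in 15 of 15 libraries (two-sided exact sign-flip permutation test, p = 6.1e-05, the smallest it can give). The A03/C03 ratio averaged -0.47 ± 0.32 (SD, n = 15), a 1.38-fold higher C03 copy, and was below 0 in 14 of 15 libraries (exact p = 0.00012). The A01/C01 ratio averaged -0.40 ± 0.81 (SD, n = 15) and was below 0 in 10 of 15 libraries (exact p = 0.064), so a lean of this pair was not resolved. Its exact p fell below the limit of 0.05 without any 1 of mgCOT replicates 1 and 2 and mgROOT replicates 1 and 2, where the mean was as low as -0.46. The p-values of the 8 tests made on ratios are not adjusted.

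The *SESA1* pair was the only one with a higher An copy in TPM, and this lean depended on the lengths used for its gene models. Its ratio averaged 1.04 ± 1.02 (SD, n = 15), a 2.06-fold higher A01 copy, and was above 0 in 13 of 15 libraries (two-sided exact sign-flip permutation test, p = 0.0031). The model of BnaC01g19300D was counted as 2.45 times as long as that of BnaA01g17200D, which lowers its TPM for a given number of reads. With recovered reads in place of TPM, which was tried once the TPM ratios were known, the mean log2 ratio was -0.25 ± 1.02 (SD, n = 15) and above 0 in 7 of 15 libraries (exact p = 0.38). Reads are not corrected for length and favor the longer Cn model, by about 1.29 on the log2 scale. The read ratio therefore restates the TPM ratio without the length term and is not a separate test of the lean. The read ratios of the A08/C08, A01/C01, and A03/C03 pairs of *SESA4*, whose copies were of nearly the same length, averaged -4.71, -0.41, and -0.47.

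The lean of 3 pairs differed between embryo and maternal libraries. The A03/C03 ratio was -0.87, -0.79, and -0.93 in the mgCOT and -0.5695 and -1.04 in the mgROOT, against a lowest, median, and highest ratio of -0.5668, -0.29, and 0.02 in the 10 maternal libraries. Every embryo library was below every maternal library, with the smallest gap in the third decimal. The means were -0.84 ± 0.18 (SD, n = 5) in the embryo and -0.28 ± 0.16 (SD, n = 10) in the maternal libraries, a difference of -0.56 (two-sided exact permutation test over 3003 splits, p = 0.00033, the smallest it can give). The A01/C01 ratio went the other way, at 0.33, 0.26, and -0.14 in the mgCOT and 0.46 and 0.21 in the mgROOT, against -2.32, -0.48, and 0.02 in the maternal libraries. Its means were 0.22 ± 0.22 (SD, n = 5) in the embryo and -0.72 ± 0.83 (SD, n = 10) in the maternal libraries, a difference of 0.94 (exact p = 0.028), and the ranges overlapped. Without mgCPT replicate 2 and mgOSC replicate 1 the difference was 0.57 (exact p = 0.0054), and the exact p was above 0.05 without mgCOT replicate 1, mgCOT replicate 2, or mgROOT replicate 1. The A08/C08 ratio was -6.12, -6.24, and -6.13 in the mgCOT and -6.48 and -5.98 in the mgROOT, against -6.18, -4.31, and -0.91 in the maternal libraries, a difference of -2.43 (exact p = 0.0087). This pair is drawn toward 0 where both copies are low, and with 0.1 TPM added the difference was -2.09 (exact p = 0.061). The *SESA1* ratio differed by 0.93 between embryo and maternal libraries (exact p = 0.087), and by 0.47 (exact p = 0.16) without mgCPT replicate 2 and mgOSC replicate 1, which was not resolved. With the subregion as the unit, 2 against 4 subregions cannot give an exact p under 0.067.

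Of the maternal libraries, mgCPT replicate 2 and mgOSC replicate 1 stood apart in 3 pairs. Their A01/C01 *SESA4* ratios were -2.09 and -2.32, against -0.70 to 0.02 in the other 8 maternal libraries, and their *SESA1* ratios were -1.19 and -1.003, against 0.04 to 1.77 in the other 8. Their A03/C03 ratios, 0.02 and -0.09, were the highest. These libraries come from different subregions. BnaC01g19320D had 2520 and 2522 TPM in them and BnaA03g06940D had 586 and 579 TPM. Other values differed, with 153 and 192 TPM for BnaC08g12450D and 9697 and 5535 TPM for the summed oleosins. Over all genes their log2(TPM + 1) values had a Pearson r of 0.755. It was 0.869 between the mgOSC libraries, and 0.772 and 0.701 between mgCPT replicate 2 and mgCPT replicates 1 and 3.

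**Figure D4:**
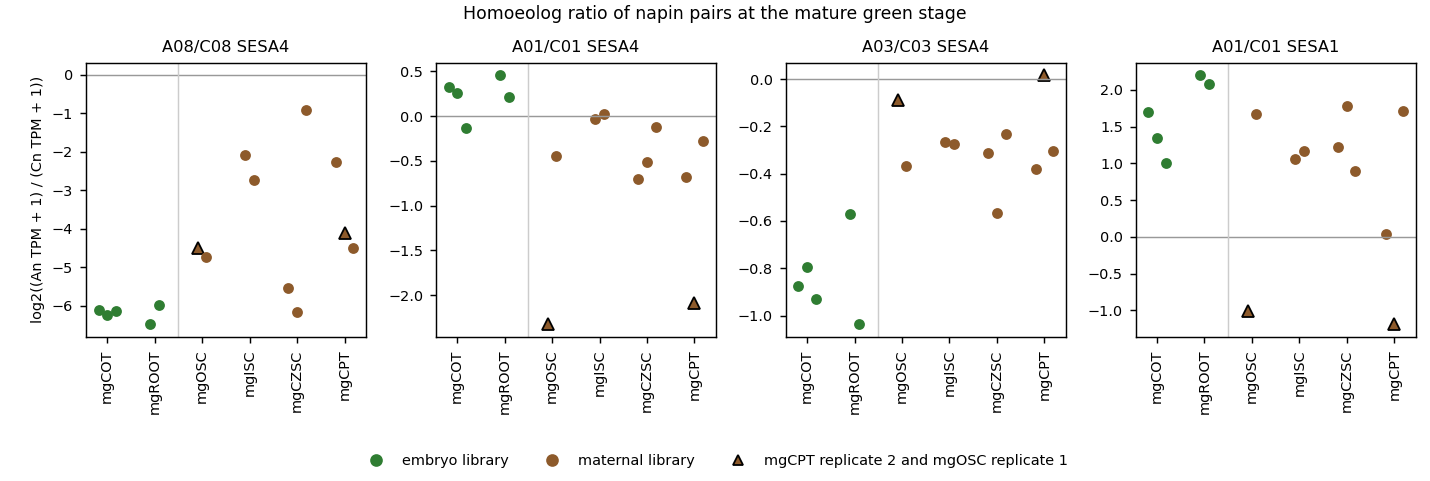
Log2 ratio of An over Cn (TPM + 1) for 4 napin pairs in the 15 mature green libraries, with embryo libraries (green) left of maternal libraries (brown) and a separate scale in each panel. Triangles are mgCPT replicate 2 and mgOSC replicate 1. The A03/C03 ratio is below every maternal library in all 5 embryo libraries.

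At the heart stage napins were already detected in the embryo proper and in part of the endosperm. Relative to the endosperm (hMCE, hPEN, and hCZE, 8 libraries), 4 copies were called higher in the hEP (3 libraries), where 7.77% of genes were called higher. BnaC08g12450D had 2.99, 9.94, and 2.29 TPM in the hEP libraries, from 4, 8, and 5 recovered reads, and no recovered read in any of the 8 endosperm libraries, with a change of 2.38 ± 0.56 (SE, limma adjusted p = 0.00092). BnaC01g19300D had 14.6, 38.7, and 23.6 TPM in the hEP against 0.15, 2.87, and 10.4 TPM (lowest, median, and highest) in the endosperm, with a change of 2.69 ± 0.79 (SE, limma adjusted p = 0.010). Both copies were higher in every hEP library than in any endosperm library, which held for 7.63% of genes. The calls of BnaA01g16220D (change 2.48, limma adjusted p = 0.044) and BnaC03g08840D (change 2.67, limma adjusted p = 0.039) were both lost without hEP replicate 2, hEP replicate 3, hMCE replicate 1, hMCE replicate 3, hPEN replicate 1, or hCZE replicate 1. That of BnaA01g16220D was also lost without hMCE replicate 2 or hPEN replicate 2, and that of BnaC01g19300D without hEP replicate 2.

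Within the endosperm both copies of the A03/C03 pair were called higher in the micropylar and peripheral subregions than in the chalazal endosperm. BnaC03g08840D had 19.1, 72.2, 22.2, and 114.9 TPM in the hMCE and 58.2 and 105.0 TPM in the hPEN, against 0.49 and 3.03 TPM in the hCZE, with a change of 4.60 ± 1.14 (SE, limma adjusted p = 0.0021). BnaA03g06940D had 7.78 to 42.7 TPM in the hMCE and hPEN, against 0.0016 and 2.71 TPM in the hCZE, with a change of 3.495 ± 1.11 (SE, limma adjusted p = 0.025). These were the 2 copies called in this comparison, where 7.14% of genes were called higher and 14.6% did not overlap in this direction. Without hCZE replicate 1 neither was called, and without hPEN replicate 2 only BnaC03g08840D was. *LEC1*, an endosperm and embryo marker at this stage, moved the same way, and its copies had summed levels between 319 and 1001 TPM across the 6 hMCE or hPEN samples, against 4.87 and 5.26 TPM in the hCZE. Of the 11 listed oleosin copies 7 were called higher as well. The part of either in the napin values was not tested.

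Over all heart filial libraries (11) against all heart maternal libraries (12), BnaC03g08840D was the only copy called, where 7.48% of genes were called higher. It had a mean of 83.8 ± 93.8 TPM in filial libraries (SD, n = 11) and 11.7 ± 9.94 TPM in maternal libraries (SD, n = 12), with a change of 1.998 ± 0.585 (SE, limma adjusted p = 0.0031) and overlapping ranges. BnaA03g06940D was called as well without hOSC replicate 3. The A03/C03 pair leaned toward Cn in the hEP, hMCE, and hPEN, with mean log2 ratios of -1.74 ± 0.24 in the hEP (SD, n = 3), -1.32 ± 0.26 in the hMCE (SD, n = 4), and -1.58 ± 0.08 in the hPEN (SD, n = 2). In the hCZE, where the pair summed to 3.11 TPM on average, the mean ratio was only -0.35 ± 0.32 (SD, n = 2). These ratios are given without a test. Between the heart and the globular embryo proper no copy was called with limma, where 0.891% of genes were called in either direction, although 3 copies had an unadjusted p under 0.05 and the changes were 0.08 to 2.24 on the log2 scale. BnaC08g12450D, with 2.29 to 9.94 TPM in the hEP and 0.038 to 1.47 TPM in the gEP, was called without gEP replicate 3. For this copy and for BnaC01g19300D every hEP library was above every gEP library, which held for 0.842% of genes.

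In the outer seed coat of ovules and globular seeds most reads of the 7 napin copies came from the C01 copies of *SESA4* and *SESA1*. BnaC01g19320D had 12.2, 14.1, and 9.81 TPM in the ovOSC and 11.6 and 34.8 TPM in the gOSC. Its A01 partner, BnaA01g16220D, had 0.48, 0.0024, and 2.69 TPM in the ovOSC and 0.11 and 5.01 TPM in the gOSC. BnaC01g19300D had 18.3, 19.3, and 10.8 TPM in the ovOSC and 20.2 and 28.6 TPM in the gOSC, and in each of these 5 libraries both C01 copies were above both A01 copies. The reads behind these values numbered 1096 for BnaC01g19300D and 299 for BnaC01g19320D, against 23 for BnaA01g17200D and 16 for BnaA01g16220D. A longer gene model gathers more reads at a given TPM. The models of BnaC01g19300D and BnaC01g19320D were counted as 4.30 and 1.72 times as long as that of BnaA08g14120D. By TPM the C01 copies gave 64.8% to 96.7% of the sum of the 7 genes in these 5 libraries. The C01 copies gave 97.7% of the recovered reads of the 7 genes in the gOSC and 92.9% in the ovOSC, 91.7% in the ovCZSC, 91.4% in the gISC, and 85.8% in the ovISC, against 23.1% in the mgROOT and 33.5% in the mgCOT. In the outer seed coat of later stages their share was 47.9% in the hOSC, where replicate 3 held 87 of the 93 C01 reads. In the mgOSC it was 42.2%, with 75.3% in replicate 1 and 35.8% in replicate 2. Single libraries carried 2 of the shares in ovules and globular seeds. In the ovISC replicate 1 held 181 of the 205 C01 reads, and without it the share was 47.1%. In the gISC replicate 2 held 114 of the 127 C01 reads, and without it the share was 61.9%. In the ovCZSC the 3 libraries had 88.8% to 94.2%. The remaining early maternal subregions had lower shares, with 40.8% in the gCZSC, 48.9% in the ovCPT, and 58.3% in the gCPT.

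The balance between the C01 copies in these outer seed coat libraries differed from that at the mature green stage. BnaC01g19300D had 0.82 to 1.74 times the TPM of BnaC01g19320D in the 5 ovOSC and gOSC libraries, against 0.43 to 0.53 times in the 5 mature green embryo libraries and 0.32 to 0.43 times in the 10 mature green maternal libraries. These 5 libraries did not overlap with the mature green libraries in this ratio. In other early libraries the ratio was spread more widely and overlapped with the mature green range, at 0.16 to 281 in the other 17 ovule and globular maternal libraries, some with few or no reads of a copy, and at 0.16 to 1.64 in the 7 gEP and hEP libraries. This pattern in ovules and globular seeds was noticed in the values and was not tested. Over the 2 C01 copies the values of 9.81 to 34.8 TPM in these 5 libraries compare with 81.9 to 5650 TPM in the mature green libraries.

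**Figure D5:**
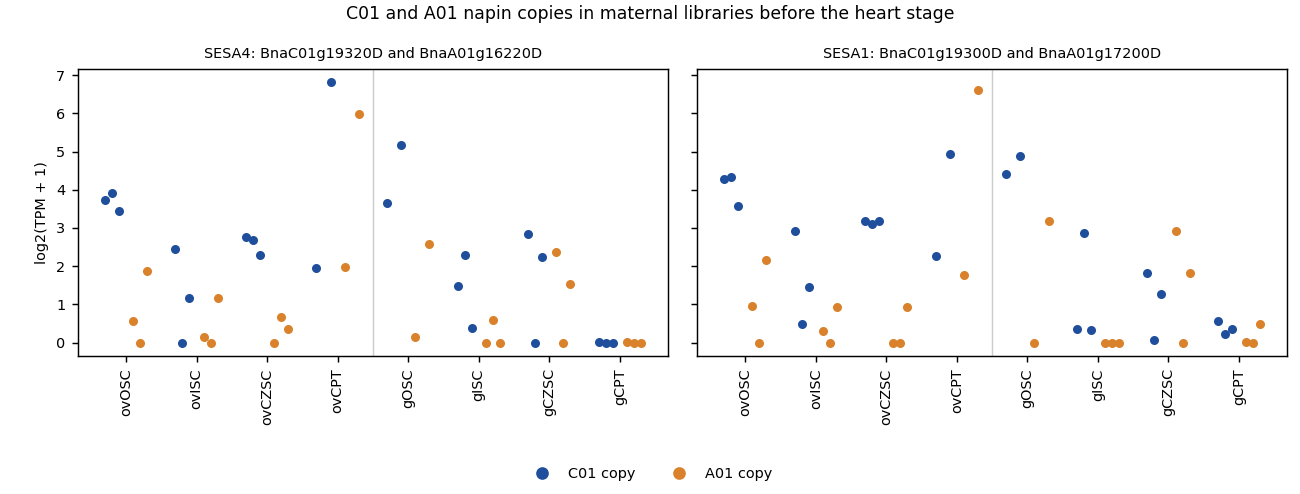
Level of the C01 copy (blue) and the A01 copy (orange) of *SESA4* and *SESA1*, as log2(TPM + 1), in the maternal libraries of ovules and globular seeds. Points are libraries, and in the ovOSC and gOSC both C01 copies, at 9.81 to 34.8 TPM, are above both A01 copies in every library.

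In other early subregions single libraries stood apart. In gMCE replicate 2 the 5 copies on A01, C01, A03, and C03 had 49.3 to 178.5 TPM, against 0.0089 to 24.1 TPM in the other 4 gMCE libraries. No read of either *LEC1* copy was recovered in gMCE replicate 2, but this did not set it apart. The *LEC1* copies summed to 0.0156, 0.0084, and 0.0041 TPM in gMCE replicates 1, 2, and 3, and to 15.3 and 7.17 TPM in replicates 4 and 5. In ovCPT replicate 2 the same 5 napin copies had 29.8 to 111 TPM from 5 to 9 recovered reads each, against 2.90 to 5.92 TPM in ovCPT replicate 1. The highest value of BnaA08g14120D in the series, 21.5 TPM, was also in ovCPT replicate 2 and rested on a single read. In the 3 gCPT libraries the copies had at most 1.38 TPM.

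Other listed storage genes mostly shared the mature green rise. The 3 other napin copies, *SESA1* BnaA01g17200D and *SESA3* BnaA03g48490D and BnaC07g40770D, were called higher in the mature green embryo than in the hEP, with log2 changes of 6.88 to 7.96. Of the 8 copies listed as cruciferins, the 6 *CRU1*, *CRU2*, and *CRU3* copies were called higher there, as were 9 of 11 oleosin copies. The 2 *CRB* copies were called lower. Their profiles over the 26 subregions ran against the mean profile of the 7 copies (Pearson r = -0.61 for BnaA06g05390D and -0.53 for BnaC05g06870D). Whether the *CRB* copies encode cruciferins was not checked. Among genes that are not listed, the profile most like the mean profile of the 7 copies over the 26 subregion means of log2(TPM + 1) was that of BnaC01g19310D (Pearson r = 0.991 over 26 subregions, with subregions of a stage sharing stage and scale), followed by BnaC01g19330D (r = 0.991). Neither has a name in the sources used here, and their identifiers lie next to those of the C01 copies. Among the 7 copies the profiles of BnaA03g06940D and BnaC03g08840D were most alike (r = 0.992 over 26 subregions), and BnaA08g14120D was least like the others (r = 0.675 to 0.807).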

How the data were processed

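The deposited values are TPM, which the authors computed from uniquely aligned reads per gene (fastp for trimming, HISAT2 for alignment to the Darmor-bzh assembly, featureCounts for counting). Values of 74 libraries were tested as log2(TPM + 1) with limma 3.58.1 (R 4.3.3, trend), with a mean for each of 26 subregions in a single fit, over 99,343 genes of at least 1 TPM on average in a subregion. The limit was a Benjamini-Hochberg adjusted p of 0.05. Log2 ratios of homoeologs were tested by exact sign-flip and permutation tests (Python 3.11.15). Genes named in the text are the 7 copies, the listed storage genes, and the unlisted genes most alike in profile. These genes, the lists, and the tests were chosen with earlier results of these data known. Libraries are pools of many plants, so p-values measure the spread between pools. Reads were recovered from TPM as whole multiples of the value of a read, within 0.1 reads for 270 of 270 values of the 7 copies under 10 reads. Alternatives changed the added TPM, the filter, the scaling, the libraries in the fit, the replicate block, and the libraries left out. The code was tested on simulated data.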

Additional observations from a re-analysis of the deposited data

Results flagged for a closer look

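In 43 groups of 4 to 10 libraries a single library far from the rest was looked for, and 3 were found. Chance passes this test in about 1 in 20 groups where values are normally distributed. Where a copy has reads in a single library of a group, that library passes almost by the form of the test. The first 2 finds below are of this kind, so that rate does not apply to them. BnaA08g14120D had 0.589 TPM in gEP replicate 3, from 2 recovered reads, and no read in the other 3 gEP libraries. BnaC08g12450D had 6.20 TPM in gMCE replicate 2, from 3 recovered reads, and no read in the other 4 gMCE libraries. BnaC01g19320D had 190 TPM in mgCZSC replicate 3, against 1026 to 5650 TPM in the other 9 mature green maternal libraries.

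The log2 ratio of An over Cn differed between embryo and maternal libraries of the mature green stage in 3 *SESA4* pairs, by -2.43 for A08/C08 (two-sided exact permutation test over 3003 splits, p = 0.0087), by 0.94 for A01/C01 (exact p = 0.028), and by -0.56 for A03/C03 (exact p = 0.00033). The differences ran in opposite directions, with a lower An share in the embryo for A08/C08 and A03/C03 and a higher one for A01/C01.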

How the results depend on the processing

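The counts of 7 copies higher in the mature green embryo than in the hEP and of 7 higher in mature green than in heart maternal libraries held under every alternative that was run, apart from 6 in the embryo where a single library was left out. Between mature green embryo and maternal libraries, 3 copies were called, and 7 were with TPM rescaled without the 200 genes of highest mean or without the top 200 other than storage genes, which set the median of the 7 copies at 4.70 and 3.90 and that of all genes at -1.13 and -1.24. There 1 copy was called without mgCPT 2 and mgOSC 1 together, and 2 to 4 without a single library. The change of BnaA08g14120D in that comparison was 2.79 in place of -0.25 with quantile normalization, and 3.03 and 2.23 with the rescalings. In the mgISC 0 copies were called with 0.1 TPM added or with only the libraries compared, and 2 with a filter at 5 TPM, with quantile normalization, with either rescaling, without the 3 libraries whose labels differ, and without the mgCZSC library that has no number. In the mgOSC the count was 0 with 0.1 TPM added, with only the libraries compared, or rescaled without the top non-storage genes, and 2 with the filter at 5 TPM or quantile normalization. It was 2 between hEP and endosperm with 0.1 TPM added, and 2 between heart filial and maternal libraries with quantile normalization or either rescaling. Without a single library the counts were 1 to 2 in the mgISC, 0 to 2 in the mgOSC, 1 to 4 for hEP against endosperm, 0 to 1 for hEP against gEP, 0 to 2 within the endosperm, and 1 to 2 for heart filial against maternal libraries. The cause of these changes was not tested.

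The embryo minus maternal difference of the A08/C08 ratio was -2.09 with 0.1 TPM added (exact permutation p = 0.061), -2.48 with the subregion as the unit (p = 0.067), and -2.27 without the 3 libraries whose labels differ (p = 0.050). That of A01/C01 was 0.96 (exact permutation p = 0.13) by subregion, 0.90 (exact p = 0.068) without those 3 libraries, and 0.76 to 1.03 without a single library, and that of A03/C03 was -0.56 (exact p = 0.067) by subregion. The mean A01/C01 ratio was -0.50 (exact p = 0.049) without those 3 libraries and -0.46 to -0.27 without a single library. The *SESA1* ratio was -0.25 on recovered reads (exact p = 0.38), which are not corrected for the unlike lengths of its gene models. The rescaling without non-storage genes, the pair left out together, and recovered reads were chosen after seeing the data. With the replicate number as a block, 2 copies in place of 1 were called in the mgISC, and no other count changed. Numbers did not pair the samples, since same-numbered libraries had a median correlation of 0.0066 between deviations from their subregion means, against -0.0030 for others.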
